A study of Hordeum vulgare with 39 samples.

Results

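Endosperm and embryo of the developing barley grain (Hordeum vulgare, the six-rowed spring cultivar Morex) were compared at 8 days after pollination (DAP). The comparison rests on the 3 libraries titled as 8 DAP endosperm and the 3 titled as 8 DAP embryo, 6 of 39 libraries in the series, matched to columns of the count table by the library number in each title. All plants were Morex grown in a climate chamber, with no treatment or transgene named, and the tissues were dissected by hand. The labels name 2 RNA isolation kits and do not say which kit served which library. Endosperm at 4 DAP, later libraries of both tissues (16, 24 and 32 DAP) and libraries of the maternal tissues of the seed (4 to 24 DAP) are also part of the series. They entered the shared edgeR fit and are otherwise used only where they show how the 8 DAP difference behaves elsewhere. The labels do not say whether replicates came from separate plants, so p-values measure the spread between replicate libraries, which may be technical. For edgeR that spread was estimated over all 39 libraries.

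Both tissues arise from fertilization and grow side by side in the same grain. The cereal endosperm begins as a syncytium, forms cells, and differentiates into transfer cells, aleurone and the starchy endosperm that stores starch and storage protein. The embryo meanwhile lays down the body plan of the seedling and its scutellum, the organ that later takes up the stored reserves. Barley embryo and endosperm at this age are therefore neighbours with different tasks, one patterning and dividing, the other turning to storage.

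Counts per library were 15899434, 16695817 and 28245871 in endosperm replicates 1 to 3 and 15248254, 17641225 and 36732347 in embryo replicates 1 to 3. Replicate 3 was the deepest library of both tissues, and its library numbers stand apart from those of replicates 1 and 2. Replicates of one tissue correlated between 0.992 and 0.994 and libraries of different tissues between 0.785 and 0.799 (Pearson, log2(CPM + 1), across genes, which are not independent replicates). CPM is the read count of a gene divided by all counts of the library and scaled to a common total of 1000000. Among genes at a mean of 10 CPM or more, the median coefficient of variation over replicates was 8.58% in endosperm (9315 genes) and 9.53% in embryo (10073 genes). The identifiers were not paired with gene names by the sources used here, so genes are given by identifier, and the tissue labels were not checked against marker genes.

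The question was how the transcript populations of the 2 tissues differ at this age. Of 29594 genes tested, 13794 (46.6%) differed by a log2 fold change of at least 1 at an adjusted p under 0.05 in edgeR's quasi-likelihood test. Of these, 7708 (26.0% of genes tested) were higher and 6086 (20.6%) lower in endosperm. Because these are bulk samples, fewer cells of a type and less RNA per cell cannot be told apart. The split depended on scaling. With factors of the trimmed mean of M-values (TMM), 55.9% of calls were higher in endosperm and the median log2 fold change of all genes was 0.10, while with library size alone 44.5% were higher and the median was -0.05.

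The genes higher in endosperm differed by more than the genes lower in it. Their median absolute log2 fold change was 3.59, and 45.9% of them (3541) reached 4 or more. For the genes lower in endosperm the median was 2.46, and 26.7% (1624) reached 4. Where a tissue held 0 counts, the size of the fold depends on a small prior count that edgeR adds. Scarce genes were more common among the higher calls, with 2179 of them, against 763 lower calls, under 1 CPM in both tissues. The part of such genes and of scaling in this asymmetry was not tested. The 3 endosperm libraries all lay above the 3 embryo libraries for 35.9% of genes tested, and all below them for 30.9%, on the scale of TMM-adjusted CPM. Libraries did not overlap for 7429 of the genes called higher and 6007 of those called lower. At the other end, the 95% interval of the log2 fold change lay within -1 to 1 for 4357 genes (14.7%), 3482 of which had a mean of 10 CPM or more over both tissues. A further 3230 genes passed the adjusted p but not the fold minimum.

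**Figure D1:**
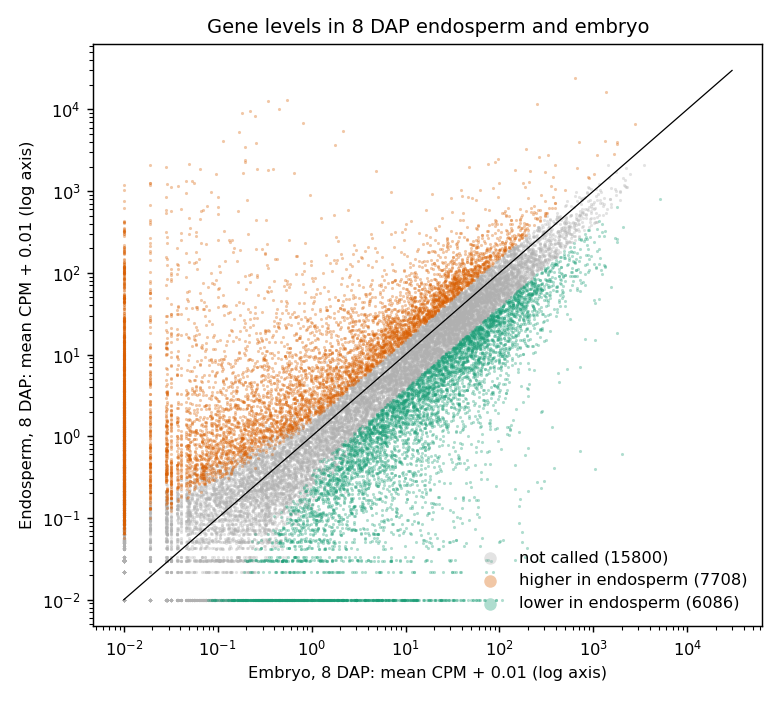
Mean CPM in 8 DAP endosperm (vertical) against 8 DAP embryo (horizontal), both with 0.01 added on log axes, 1 point per gene tested and the line marking equal levels. The 7708 genes called higher in endosperm reach far above the line at low embryo levels, and the 6086 called lower sit closer to it.

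The balance between the tissues changed with transcript level. In what follows a gene is placed by the higher of its means in endosperm and embryo. Genes whose higher mean was under 1 CPM were called higher in endosperm in 21.9% of cases and lower in 7.67% (9948 genes). Between 1 and 10 CPM the shares were 33.0% and 27.0% (7964 genes). Between 10 and 100 CPM the shares were 24.5% and 26.6% (8645 genes), and between 100 and 1000 CPM 24.7% and 29.3% (2877 genes). Above 1000 CPM the order turned again, with 45.6% higher and 21.3% lower in endosperm (160 genes). Calls higher in endosperm thus outnumbered the others among the most abundant genes and under 10 CPM, and were fewer between 10 and 1000 CPM. These calls used TMM factors alone, and the part of scaling in the shares by level was not tested.

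The number of genes found in each tissue depended on where detection began. At 1 CPM or more, 17254, 17182 and 16785 genes were detected in the endosperm libraries and 16817, 16433 and 16993 in the embryo libraries. These ranges overlap, and the mean difference of 326 genes did not pass (exact permutation test, two-sided, p = 0.3). It was 169 genes without embryo replicate 2, and from 236 to 470.3 without any other single library. At 5 CPM the order turned, with 11719, 11698 and 11540 genes in endosperm against 12303, 11992 and 12474 in embryo. With every library drawn down to 15248254 counts and a single read enough, 29502, 29019 and 28334 genes were found in endosperm and 25778, 24954 and 25759 in embryo. Endosperm then lay above embryo in every library, by a mean of 3455 genes (exact permutation test, two-sided, p = 0.1, the smallest that 3 against 3 libraries can give).

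Endosperm concentrated its counts on fewer genes. It took 587, 601 and 512 genes to reach 50% of the counts in endosperm replicates 1 to 3, and 1062, 945 and 1107 in the embryo replicates. The single most abundant gene held between 2.41% and 2.46% of an endosperm library and between 0.486% and 0.526% of an embryo library. The 10 most abundant genes held 11.8%, 11.6% and 13.3% in endosperm against 2.67%, 2.95% and 2.57% in embryo. No library of one tissue reached the range of the other in any of these measures. For the share of the 100 most abundant genes the difference was 14.9 percentage points (exact permutation test, two-sided, p = 0.1, the smallest possible).

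**Figure D2:**
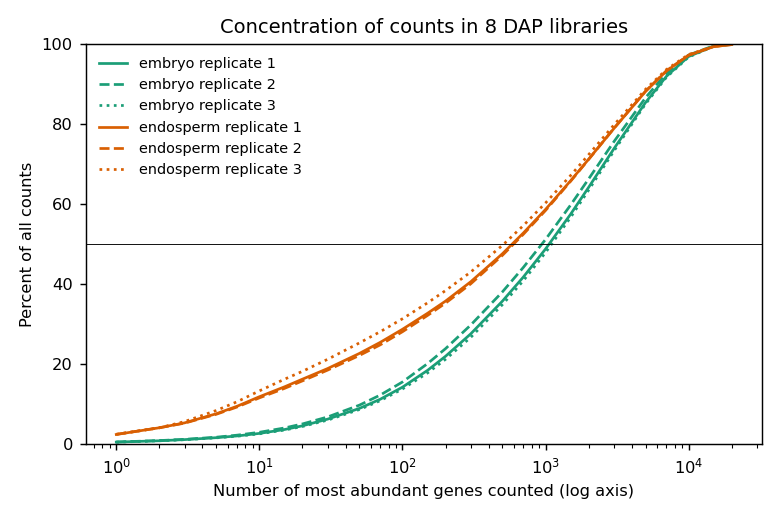
Percent of all counts of a library held by its most abundant genes (vertical) against the number of genes counted (horizontal, log axis), 1 line per library, with a thin line at 50%. The 3 endosperm lines run above the 3 embryo lines up to 7000 genes.

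The leading genes of the endosperm fell into separate kinds, which the levels in embryo set apart. Of the 100 genes with the highest mean in 8 DAP endosperm, 75 were called higher there and 0 lower, which follows in part from their choice. Of all genes tested, 26.0% were higher and 20.6% lower. In the embryo, 35 of them had a mean under 1 CPM, while 53 had 100 CPM or more. The 35 genes had endosperm means between 972 and 13064 CPM (median 1854) and a median embryo mean of 0.104 CPM. Together they held 11.9%, 11.4% and 14.0% of the counts of the endosperm libraries and 0.000439%, 0.00021% and 0.00118% of the embryo libraries. The 53 genes were abundant in both tissues, with a median of 1455 CPM in endosperm and 1061 CPM in embryo. They held between 14.1% and 14.7% of the endosperm counts and between 5.96% and 6.56% of the embryo counts. Of these 53, 28 were still called higher in endosperm, and their median log2 fold change over all 53 was 1.10. The highest endosperm mean among them was 24347 CPM.

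The leading genes of the embryo showed no such split. Of the 100 genes with the highest mean in 8 DAP embryo, 2 had under 1 CPM in endosperm and 91 had 100 CPM or more. Among these 100, 35 were called lower and 8 higher in endosperm, with a median log2 fold change of -0.63. Of all genes tested, 20.6% were lower and 26.0% higher, and choosing genes by their embryo level favours lower calls. Both lists of 100 shared 28 genes. The embryo thus had few abundant transcripts that were scarce in endosperm.

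Libraries that played no part in choosing these lists placed them in time. The 35 genes abundant in endosperm and under 1 CPM in embryo held only 0.38%, 0.251% and 0.248% of the counts of the 4 DAP endosperm libraries, where 20 of them had a mean under 1 CPM. At 16 DAP they held 26.2%, 30.3% and 30.6% of the endosperm counts. Their share was between 23.7% and 26.5% by 24 DAP and between 11.8% and 14.6% by 32 DAP. In embryo libraries from 16 to 32 DAP their share stayed between 0.00102% and 0.00304%. The summed share thus was higher at 8 than at 4 DAP and higher again at 16 DAP, with no overlap between the libraries of neighbouring stages up to then. The genes were chosen in the 8 DAP libraries, which favours a higher share there than at 4 DAP. Single genes did not all follow the sum, and 20 of the 35 had their highest endosperm mean at 8 DAP, where they were chosen.

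The summed share of the 100 leading embryo genes in endosperm was lower at 8 than at 4 DAP and lower again at 16 DAP. They held between 13.7% and 15.4% of the counts in 8 DAP embryo and between 9.86% and 10.2% in 8 DAP endosperm. In 4 DAP endosperm they held between 18.1% and 20.6%, a higher share than in any 8 DAP embryo library. At 16 DAP the endosperm share was 4.36% on average (between 4.11% and 4.83%), and at 32 DAP it was 3.40%. In seed maternal tissues at 4 DAP the share was between 6.16% and 7.57%. The 4 DAP endosperm libraries carry library numbers of their own, and the part of this in the shares was not tested.

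**Figure D3:**
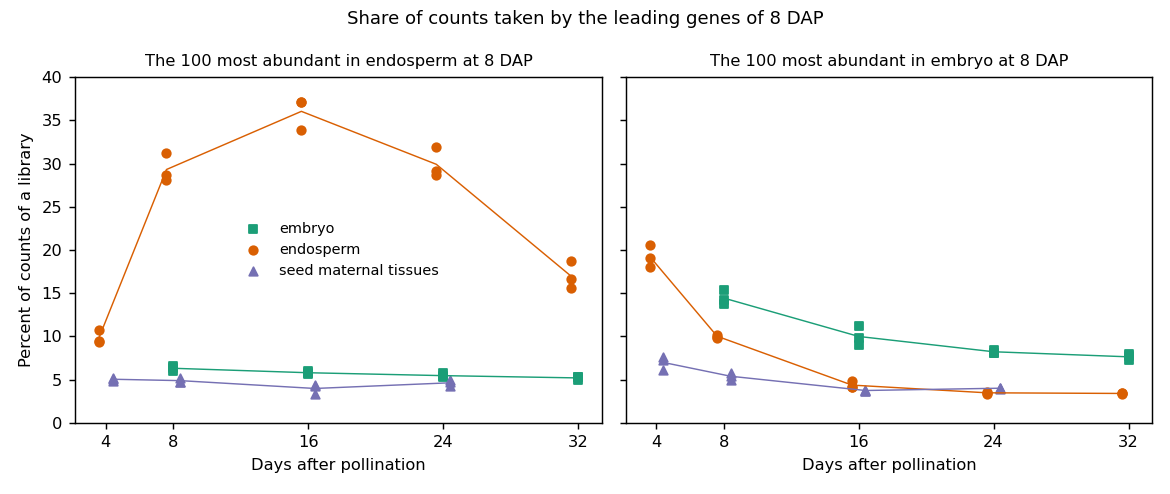
Percent of the counts of a library (vertical) held by the 100 most abundant genes of 8 DAP endosperm (left) and of 8 DAP embryo (right) against days after pollination, 1 point per library, lines through the means of 3 libraries. On the right, the 4 DAP endosperm libraries (18.1% to 20.6%) lie above the 8 DAP embryo libraries in which the genes were chosen.

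The counts of all genes called at 8 DAP were summed in the same way. Both sets were chosen in the 8 DAP libraries, which favours a gap between the tissues there. The 7708 genes called higher took between 51.0% and 54.2% of the counts in the endosperm libraries they were chosen in and between 8.46% and 9.35% in the embryo libraries. Their share in 4 DAP endosperm was between 18.1% and 20.8%. The 6086 genes called lower took between 34.8% and 35.2% of the embryo counts and between 6.15% and 6.99% of the 8 DAP endosperm counts. In 4 DAP endosperm they took between 21.2% and 23.6%, although their median level there, 1.35 CPM, was close to the 1.31 CPM of 8 DAP endosperm.

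Seed maternal tissues of the same age, which surround both, were set beside the calls. Of the genes called higher in endosperm, 2952 (38.3%) had a seed maternal mean above both tissues, 3811 (49.4%) a mean between them and 945 (12.3%) a mean below both. For the genes called lower in endosperm, the counts were 1510 (24.8%), 3032 (49.8%) and 1544 (25.4%). In both sets the maternal mean most often lay between the tissues, which the choice of genes far apart in them favours. The shares over all genes tested are not given here. Whether the sets differ was not tested.

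Some transcripts were found in one tissue with few or no reads in the other. There were 575 genes with a mean of at least 5 CPM in endosperm and at most 3 counts in every embryo library, 359 of them with 0 counts in all 3. In the other direction there were 295, of which 149 had 0 counts in every endosperm library. The endosperm set reached higher levels, with a median of 20.3 CPM, 116 genes at 100 CPM or more and 22 at 500 CPM or more. In the embryo set the median was 12.1 CPM, 10 genes reached 100 CPM and the highest mean was 269 CPM. Against a floor of 3 counts in the shallowest library of the lower tissue, the median gene was at least 103-fold higher in the endosperm set and at least 64.3-fold higher in the embryo set. Floors and bounds cover counting error only, because the reads carry no molecular identifiers.

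Most of these genes stayed low in the other tissue at later stages. Of the 575 endosperm genes, 441, 441 and 437 had at most 3 counts in every embryo library at 16, 24 and 32 DAP, and 373 did so at every stage. At 24 DAP, 31 of them reached 5 CPM in embryo. Among the 295 embryo genes, 236, 231 and 195 stayed at or under 3 counts in endosperm at 16, 24 and 32 DAP, 180 of them throughout, and 21 reached 5 CPM in endosperm at 32 DAP. In seed maternal tissues at 8 DAP, 221 of the endosperm genes and 124 of the embryo genes also had at most 3 counts in every library. In endosperm itself, 369 of the 575 had a mean of 1 CPM or more at 4 DAP.

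Genes abundant in one tissue were also followed into the libraries of the other, since dissection by hand can carry traces across. Of 207 genes at 500 CPM or more in every 8 DAP endosperm library, 19 had at most 3 counts in every embryo library. With fewer than 3 counts taken as 3, the lowest level of any of the 207 was 0.00155%, 0.0013% and 0.00356% of its endosperm level in embryo replicates 1 to 3. Of 255 genes at that level in the embryo, 0 had so few counts in all endosperm libraries, where the lowest level was between 0.0156% and 0.029% of that in embryo. Among 194 genes at that level in 8 DAP seed maternal tissues, 11 had at most 3 counts in every endosperm library and 13 in every embryo library, with lowest levels from 0.00443% to 0.00814%. The part of any carried tissue in the other results was not tested.

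The most abundant transcript of 8 DAP endosperm was HORVU.MOREX.r3.2HG0124890.1. It had 24115, 24334 and 24593 CPM in endosperm replicates 1 to 3 and 669.9, 445 and 789 CPM in the embryo replicates. All endosperm libraries lay far above the embryo libraries, and the endosperm values were tight (24347 ± 239 against 635 ± 174, mean ± SD, n = 3). Fitted on the log2 scale, endosperm was higher by 5.66 (SE 0.514, edgeR adjusted p = 1.42e-10). It was short-lived in the endosperm, where means were 97.9 CPM at 4 DAP and then 695, 86.5 and 31.2 CPM at 16, 24 and 32 DAP. In embryo it averaged 1405 CPM at 16 DAP and 118 at 24 DAP. At 16, 24 and 32 DAP the tissue difference did not pass (log2 fold changes -0.06, 0.25 and 0.94, lowest edgeR adjusted p = 0.0687). These fits used TMM factors. In CPM the embryo mean at 16 DAP was 2.02 times the endosperm mean, so the fitted -0.06 depended on the scaling.

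HORVU.MOREX.r3.7HG0644060.1 had the largest fold of genes with at least 10 counts in every library and 50 CPM in endosperm. Its values were 5258, 5176 and 6107 CPM in endosperm and 2.03, 2.27 and 2.18 CPM in embryo. Levels in the embryo differed little between libraries, from 31 to 80 counts, and the groups were far apart. Endosperm was higher by 11.71 on the log2 scale (SE 0.578, edgeR adjusted p = 1.2e-15). In endosperm the mean was 37.2 ± 18.6 CPM at 4 DAP and 5514 ± 516 at 8 DAP (SD, n = 3), and no library of one stage reached those of the other. Later endosperm means were 3362 ± 715, 2390 ± 349 and 893 ± 249 CPM (16, 24 and 32 DAP). Embryo libraries held 0 counts of it at 32 DAP, where endosperm was at least 7358-fold higher, against a floor of 3 counts.

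Among genes lower in endosperm, HORVU.MOREX.r3.5HG0490180.1 was the most abundant in the embryo. It had 5085, 5256 and 4859 CPM in embryo and 811, 868 and 704 CPM in endosperm. Embryo libraries all lay above endosperm libraries, with a log2 fold change of -2.29 (SE 0.205, edgeR adjusted p = 4.81e-11). Its level in 4 DAP endosperm was 3145 ± 454 CPM, between those of the 8 DAP tissues, and in endosperm from 16 to 32 DAP it averaged 223, 268 and 454 CPM. In embryo it stayed abundant, with means of 3805, 6384 and 5890 CPM at 16, 24 and 32 DAP.

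HORVU.MOREX.r3.4HG0406270.1 had the largest fold among genes lower in endosperm with at least 10 counts in every library and 50 CPM in embryo. It had 409, 282 and 395 CPM in embryo and 1.20, 1.62 and 1.03 CPM in endosperm, where 19 to 29 counts were found. Both groups were tight relative to the gap, and endosperm differed by -7.77 on the log2 scale (SE 0.48, edgeR adjusted p = 1.12e-13). The difference held at 16 DAP, with 364 ± 159 CPM in embryo against 0.942 ± 0.825 in endosperm (n = 3). At 32 DAP the embryo mean was 0.715 CPM and the tissue difference did not pass (log2 fold change 0.17, edgeR adjusted p = 0.849). In seed maternal tissues the means were 159, 102 and 0.264 CPM (4, 8 and 16 DAP).

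**Figure D4:**
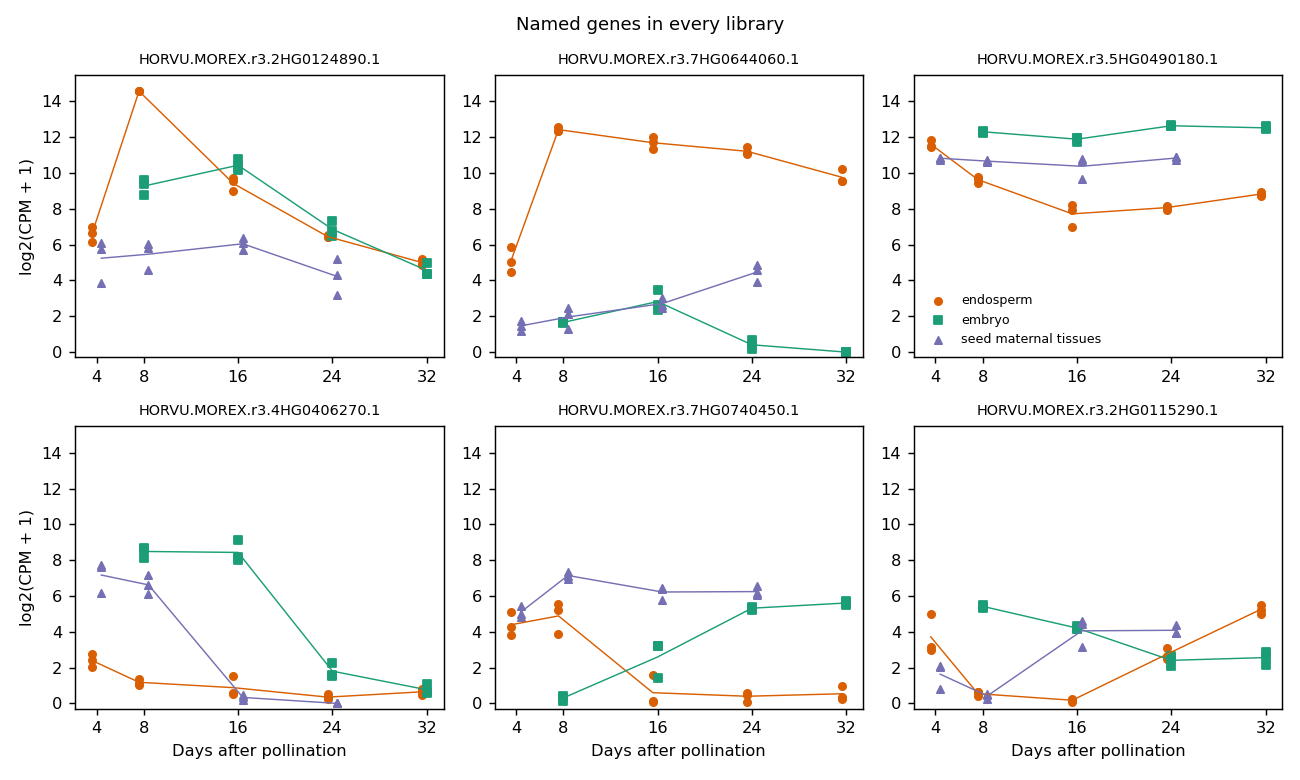
Levels of the 6 named genes as log2(CPM + 1) (vertical) against days after pollination, 1 point per library, lines through means of 3 libraries. HORVU.MOREX.r3.2HG0124890.1 peaks in 8 DAP endosperm at 24347 CPM, and the last 2 panels show genes whose order of endosperm and embryo turned between 8 and 32 DAP.

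How far the 8 DAP difference lasted was read in libraries of later stages. Their levels do not enter the 8 DAP contrast, but they shared its gene filter, scaling and estimate of spread. Of the 7708 genes called higher in endosperm at 8 DAP, 4780 (62.0%), 3677 (47.7%) and 3334 (43.3%) were called higher again at 16, 24 and 32 DAP. The share of all genes tested that were called higher was 23.0%, 19.3% and 19.2% at these stages. Of the 6086 called lower, 4760 (78.2%), 3657 (60.1%) and 2966 (48.7%) were called lower again, beside 25.1%, 22.9% and 20.4% of all genes tested. Calls in the opposite direction came to 264, 467 and 471 of the genes higher at 8 DAP and to 74, 182 and 321 of those lower. The median log2 fold change of the genes called higher went from 3.59 at 8 DAP, where they were chosen, to 2.05, 1.33 and 1.06. For the genes called lower it was -2.46 at 8 DAP and -2.62, -1.72 and -1.22 at the later stages, and so it was no smaller at 16 DAP. These calls and medians rest on TMM factors. The median shift of all genes between stages depended on scaling, as given below, and its part in these shares was not tested.

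**Figure D5:**
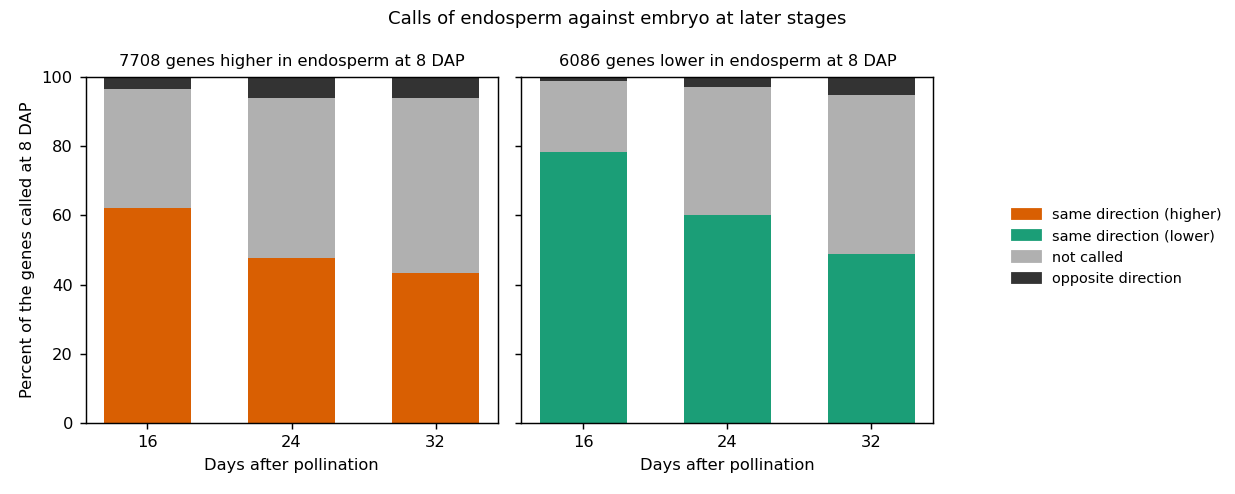
Percent of the genes called at 8 DAP (vertical) that were called in the same direction, not called, or called in the opposite direction at 16, 24 and 32 DAP (horizontal), for genes higher (left) and lower (right) in endosperm at 8 DAP. At 16 DAP the same direction was called for 62.0% of the genes on the left and 78.2% of those on the right. All calls used TMM factors.

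The change of the tissue difference itself was tested against 16, 24 and 32 DAP, in tests that share the 8 DAP libraries. From 8 to 16 DAP the difference of endosperm against embryo rose for 1164 genes (3.93%) and fell for 3238 (10.9%), by at least 1 on the log2 scale at an edgeR adjusted p under 0.05. From 8 to 24 DAP it rose for 2272 (7.68%) and fell for 4288 (14.5%), and from 8 to 32 DAP for 2977 (10.1%) and 4796 (16.2%). The share of rises among these calls was 26.4%, 34.6% and 38.3% with TMM factors. With library size alone it was 9.08%, 21.4% and 33.8%, and with median-ratio size factors 37.04%, 45.7% and 47.3%. The median difference of all genes from 8 to 16 DAP was -0.25 with TMM, -0.81 with library size alone and -0.06 with median-ratio factors. Falls outnumbered rises under all 3 scalings at each stage. Among genes called higher at 8 DAP, the difference fell by this test for 1500 (19.5%), 2476 (32.1%) and 2753 (35.7%), and among those called lower it rose for 524 (8.61%), 1289 (21.2%) and 1901 (31.2%). It moved further from 0 for 199, 218 and 208 of the genes called higher and for 730, 312 and 339 of those called lower. At 16 DAP more of the latter thus moved further from 0 than the other way. These counts within the called sets used TMM factors alone. The sets were chosen by the same 8 DAP difference that the test subtracts, which favours movement toward 0.

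A set of 1687 genes was called higher in endosperm at 8 DAP and in neither direction at any later stage, and for 291 of them the difference was smaller by the test at all 3 later stages. The corresponding numbers for genes lower in endosperm were 725 and 115. Here too the choice by 8 DAP values favours a smaller difference later. Other genes changed sides. From 8 to 32 DAP, 471 went from higher to lower in endosperm and 321 from lower to higher, with 59 and 23 at 20 CPM or more in the higher tissue at both stages.

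Among the 59 genes at 20 CPM or more, the one that turned most from endosperm to embryo was HORVU.MOREX.r3.7HG0740450.1, by the smaller of its absolute log2 fold changes at 8 and 32 DAP. At 8 DAP it had 46.4, 36.2 and 13.7 CPM in endosperm and 0.328, 0.113 and 0.272 CPM in embryo, and at 32 DAP 0.195, 0.292 and 0.986 CPM in endosperm and 47.4, 52.2 and 44.1 CPM in embryo. Groups did not overlap at either stage, though endosperm replicate 3 was low at 8 DAP. The fitted difference (log2) went from 7.40 (SE 0.774, edgeR adjusted p = 2.79e-09) to -6.19 (SE 0.698, edgeR adjusted p = 1.86e-08). Seed maternal tissues held 141 ± 17.4 CPM at 8 DAP, above both filial tissues.

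HORVU.MOREX.r3.2HG0115290.1 turned most from embryo to endosperm, by the same measure among the 23 genes. It had 41.4, 39.5 and 44.9 CPM in 8 DAP embryo and 0.314, 0.539 and 0.531 CPM in 8 DAP endosperm. At 32 DAP the values were 5.26, 6.32 and 3.48 CPM in embryo and 36.7, 31.3 and 44.8 CPM in endosperm. The order of the tissues was opposite at the 2 stages in every library. On the log2 scale the difference was -6.07 (SE 0.527, edgeR adjusted p = 2.70e-11) at 8 DAP, -5.93 (SE 0.612, edgeR adjusted p = 9.36e-10) at 16 DAP and 3.38 (SE 0.432, edgeR adjusted p = 1.02e-07) at 32 DAP.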

How the data were processed

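RNA was selected for poly-A, made into libraries and sequenced as single-end reads, per the labels' protocols; the kit named does not mark strand, so reads of a gene and its antisense partner cannot be told apart. The authors deposited raw read counts per transcript entry, 83990 entries by 39 libraries, not normalized and not pooled. HISAT2 2.1.0, SAMtools, bcl2fastq and Subread 1.5.2 are named in the submitters' processing notes. Build, strand setting and how reads matching several places were counted are not given in the sources used here, so entries that overlap or have near-identical copies are uncertain. None of the identifiers matched the RefSeq gene table (0 entries), so the planned gene lists, marker checks and sequences were not run.

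CPM was computed over library totals. The 29594 entries kept by filterByExpr, called genes in the text, went into edgeR's quasi-likelihood test (edgeR 4.0.16, limma 3.58.1, R 4.3.3): 1 coefficient per group, 39 libraries, 26 residual degrees of freedom, TMM factors, robust glmQLFit, glmQLFTest and Benjamini-Hochberg adjustment. TMM factors were 0.846 to 0.920 in 8 DAP endosperm and 1.11 to 1.23 in embryo, so ratios of CPM and fitted folds differ. Standard errors come from the F statistic. The steps were tested on simulated data. Alternatives were other scalings, DESeq2 1.42.0, filters, fold minimums, fewer libraries and block terms.

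Named genes were, in each direction, the most abundant and the one with the largest fold (at least 10 counts in all 6 libraries, and for the fold 50 CPM), and those that turned most between 8 and 32 DAP (20 CPM or more in the higher tissue at both). Members, lists and rules were chosen with earlier results of these data known.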

Additional observations from a re-analysis of the deposited data

Results flagged for a closer look

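The tissue difference was tested for change between stages, and these tests passed for many genes. The difference of endosperm against embryo changed for 4402 genes from 8 to 16 DAP, for 6560 from 8 to 24 DAP and for 7773 from 8 to 32 DAP (edgeR quasi-likelihood test of the difference, adjusted p under 0.05 and at least 1 on the log2 scale).

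Each of the named genes changed at 1 or more stages in the same test. All of them were chosen by their 8 DAP values, which can favour a change away from that stage. Those that turned were chosen for it. For HORVU.MOREX.r3.2HG0124890.1 the log2 difference changed by -5.72, -5.41 and -4.73 from 8 to 16, 24 and 32 DAP (largest edgeR adjusted p = 7.20e-07). For HORVU.MOREX.r3.7HG0644060.1 it changed by -1.70 to 16 DAP (edgeR adjusted p = 0.0289) and by 6.14 to 32 DAP (edgeR adjusted p = 0.00105), a size that depends on the prior count because embryo held 0 counts there. For HORVU.MOREX.r3.5HG0490180.1 it changed by -1.59 to 24 DAP (edgeR adjusted p = 4.52e-05). For HORVU.MOREX.r3.4HG0406270.1 it changed by 5.28 to 24 DAP and 7.93 to 32 DAP (largest edgeR adjusted p = 5.80e-05).

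For HORVU.MOREX.r3.7HG0740450.1 the changes were -9.65, -13.52 and -13.59 to 16, 24 and 32 DAP (largest edgeR adjusted p = 6.30e-08). For HORVU.MOREX.r3.2HG0115290.1 they were 7.16 to 24 DAP and 9.44 to 32 DAP (largest edgeR adjusted p = 9.49e-10).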

How the results depend on the processing

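The number of genes called at 8 DAP stayed between 9388 (log2 fold change of at least 2) and 17024 (no fold minimum) under 17 alternatives, against 13794, and was 12797 to 13259 with 1 of the 6 libraries left out. No gene was called in opposite directions by the main fit and an alternative. The 6 named genes kept their calls under all 15 alternatives run for each. Detection at 5 CPM reversed the difference to -604 genes. Requiring 0 counts left 508 genes under the floor in one tissue, and requiring 20 CPM left 387, against 870. With library size alone, 6941 genes changed their tissue difference from 8 to 16 DAP, against 4402, and 2 genes had transcript entries called in opposite directions, against 4. The cause was not tested.

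The replicate numbers were not taken to pair the samples: deviations of same-numbered endosperm and embryo libraries correlated at 0.0760, 0.0909 and 0.226. Each library still correlated best with its own number, a hint from the data and not from the design. Numbers 1 and 2 were hardly set apart, with 0.0568 and 0.0487 across them. Replicate 3 stood out, with values between -0.138 and -0.106 against other numbers. Its depth and library numbers also differ in both tissues, so these cannot be told apart from a pairing. With a replicate block, 11524 genes were called at 8 DAP over 6 libraries (11484 without the block, 20389 tested), and 3773, 7177 and 7391 genes changed their tissue difference to 16, 24 and 32 DAP. Within replicates 1 and 2 alone, which share a run of library numbers, 11606 were called. Depth limits the scarce genes, since 3 counts are 0.197 CPM in the shallowest library.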

Other observations

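Genes called in one direction at 8 DAP lay beside each other in the order of the identifiers, which carry the chromosome and a running number. In 14415 pairs of consecutive identifiers with both genes tested, 26.3% of genes were called higher in endosperm, and 42.1% of the neighbours of such genes were too. Of genes beside one called lower, 32.2% were called lower, against 19.9% of all genes in the pairs. With log2 fold changes of at least 4, the shares were 36.9% of neighbours against 11.8% of genes for endosperm, and 17.5% against 4.80% for embryo. There were 34 runs of at least 5 consecutive identifiers called higher and 2 called lower. The longest run, picked after its values were seen, had 11 genes on chromosome 6H with summed levels of 25.5, 25.6 and 20.1 CPM in 8 DAP endosperm, 1.84, 1.19 and 1.31 CPM in 8 DAP embryo and between 1.21 and 1.46 CPM in 4 DAP endosperm. Near-identical neighbouring copies can share reads, and the part of this was not tested. By chromosome, the share of genes tested that were higher ran from 25.0% (4H) to 27.0% (1H), and the share lower from 18.6% (6H) to 21.8% (5H). Of 157 genes tested that the identifiers place on no chromosome, 41 (26.1%) were higher and 8 (5.10%) lower. Over all genes tested the shares were 26.0% and 20.6%.

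Of 239 genes with more than 1 tested transcript entry, 43 had every entry called the same way and 105 had no entry called. In 87, some entries were called in 1 direction and the others were not called. Of all entries tested, 46.6% were called in either direction. Another 4 of the 239 genes had entries called in opposite directions. These 4 were chosen after their values were seen. HORVU.MOREX.r3.7HG0638370 had its entry 1 at 3.19 ± 1.21 CPM in endosperm and 10.3 ± 1.05 in embryo, and its entry 3 at 5.98 ± 0.336 and 0.842 ± 0.0941 (mean ± SD, n = 3), with log2 fold changes of -1.34 and 3.22. HORVU.MOREX.r3.5HG0495360 had its entry 1 at 0.219 CPM in endosperm and 18.1 in embryo and its entry 3 at 2.78 and 0.862, with edgeR adjusted p-values of 1.55e-09 and 0.0452. The others, HORVU.MOREX.r3.1HG0094030 and HORVU.MOREX.r3.2HG0174620, had entry means of at most 2.93 CPM. How reads shared by entries of a gene were counted is not given in the sources used here.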
